A study of Mus musculus with 7 samples.

Results

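The nicotinic acetylcholine receptor of skeletal muscle and the proteins that gather it under the nerve ending are encoded by a small group of genes, and 9 of them were followed here among the 56748 genes counted: the receptor subunit genes Chrna1, Chrnb1, Chrnd, Chrng and Chrne, and the clustering genes Musk, Rapsn, Lrp4 and Dok7. They were chosen by name for their known roles, with earlier results of these data known. RNA of muscle stem cells (MuSCs) was sequenced as direct cDNA on Nanopore flow cells, which read long cDNA molecules without amplification, in 7 libraries. The cells came from hindlimb muscles of adult mice, were selected magnetically as integrin α7-positive after CD31-, CD45- and Sca1-positive cells had been removed, and, per the growth protocol of the labels, were kept in growth medium with serum and bFGF. Of the libraries, 3 came from WT mice and 4 from mice homozygous for Jag2sm, a naturally occurring hypomorphic allele of Jag2, which encodes a ligand of NOTCH receptors. The genotype label of the Jag2sm samples reads Jag2-/-, whereas the study describes a missense allele carried in all tissues, so the Jag2 transcript itself need not be lost. Neither the labels nor the methods say that replicates came from separate animals, so p-values measure the spread between these samples, which may be technical.

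A muscle receptor is a ring of 5 subunits in which the α1 subunit occurs more than once, beside β1, δ and either γ or ε. Fetal and denervated muscle, and myotubes in culture, use the γ subunit encoded by Chrng, and innervated adult fibers exchange it for the ε subunit encoded by Chrne. At the synapse the nerve releases agrin, which binds LRP4. LRP4 then activates the receptor kinase MUSK, the adaptor DOK7 sustains that activation from inside the cell, and rapsyn, the product of Rapsn, ties receptors to the scaffold. Transcription of many of these genes starts when myoblasts differentiate, through short E boxes in their promoters (letters CANNTG) that MYOD and myogenin bind, while the N box (CCGGAA) is a site for ETS factors that act at synaptic nuclei.

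The promoters are shown to print the letters of these elements where they occur near the genes. Binding was not measured. Windows of 250 bases before the RefSeq gene start were found for Chrna1, Chrnb1, Chrng, Chrne, Musk and Dok7, the last with 2 starts. The RefSeq table is on GRCm38.p6, and its letters were matched to GRCm39, where each occurred once. CANNTG reads the same on both strands as a pattern, CAGCTG is 1 form of it and is counted in both, and CCGGAA was searched on both strands. Over 32851 such windows of all genes, 66.2% held at least 1 CANNTG and 31.8% at least 2, 13% held at least 1 CAGCTG and 1.26% at least 2, and 12% held a CCGGAA. Stretches outside annotated exons, and sites of 30 bases where an exon covers them, are given 5′ to 3′ on the gene's own strand, with motifs in capitals. A match describes letters, not binding.
Chrng, chr1:87133283-87133491, plus strand, bases -250 to -42: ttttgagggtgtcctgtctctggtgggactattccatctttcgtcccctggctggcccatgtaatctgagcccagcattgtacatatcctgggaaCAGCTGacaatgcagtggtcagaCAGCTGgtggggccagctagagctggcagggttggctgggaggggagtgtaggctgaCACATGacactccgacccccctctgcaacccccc
Musk, chr4:58285712-58285930, plus strand, bases -250 to -32: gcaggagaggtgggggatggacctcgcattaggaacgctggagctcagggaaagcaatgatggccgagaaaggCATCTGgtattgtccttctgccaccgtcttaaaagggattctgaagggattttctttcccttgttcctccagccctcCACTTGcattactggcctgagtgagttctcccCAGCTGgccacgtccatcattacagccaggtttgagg
Chrna1, chr2:73410757-73410786, minus strand, bases -104 to -75: ctgtgggcagctCAGCTGtcatgcgggcac
Chrna1, chr2:73410709-73410738, minus strand, bases -56 to -27: tagctgtggagtCAGCTGgcttccaaggcc
Chrne, chr11:70510126-70510270, minus strand, bases -250 to -106: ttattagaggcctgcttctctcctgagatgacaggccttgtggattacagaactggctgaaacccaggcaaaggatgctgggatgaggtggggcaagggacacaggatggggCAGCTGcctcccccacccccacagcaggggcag
Chrne, chr11:70510079-70510108, minus strand, bases -88 to -59: cccaaacctagcCCGGAActaacaccctcc
The windows of Chrng and Chrna1 each held 3 CANNTG elements, 2 of which were CAGCTG, starting at -155 and -132 in Chrng and at -92 and -44 in Chrna1. The window of Musk also held 3, with 1 CAGCTG at -68. Chrnb1 had 3 CANNTG and no CAGCTG, and Dok7 had 1 CANNTG in its first window and none in the other. Chrne had 1 CAGCTG, at -138, and was the 1 window of these genes with a CCGGAA, at -76. The Chrng stretch lies within the gene as GENCODE draws it, upstream of the exon that the RefSeq start opens.

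The libraries held 187834 to 1937581 reads on genes, with the lowest depth in WT replicate 1, where reads outside genes made 45.1% of those aligned, compared with 20.8% to 25.7% elsewhere. Reads that did not align made 46.0% to 50.8% of all reads in Jag2sm replicates 1, 2 and 4 and 2.44% to 3.24% elsewhere. The labels give each library a batch number equal to its replicate number, without saying what the batch was, so that WT and Jag2sm replicates 1, 2 and 3 share a batch number and Jag2sm replicate 4 stands alone. Values below are CPM, reads scaled to a common library size after TMM normalization, and a gene counts as called where edgeR's quasi-likelihood test gave it an adjusted p (Benjamini-Hochberg) under 0.05 over the 9489 genes that had enough counts. Jag2, the altered gene, had 80.7, 113.8 and 115.7 CPM in WT replicates 1 to 3 and 42.4, 78.8, 71.9 and 77.4 CPM in Jag2sm replicates 1 to 4, a log2 fold change of -0.64 ± 0.243 (SE) that was not called (edgeR adjusted p = 0.166). All Jag2sm libraries lay below all WT libraries for Jag2.

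The fetal subunit gene Chrng, the kinase gene Musk and the adaptor gene Dok7 fell furthest in Jag2sm MuSCs, to between 0.278 and 0.304 of the WT level. Of the 9 genes, 8 had enough counts to be tested and Chrne did not. The test called 4 of these 8 lower (Chrnd, Chrng, Musk and Dok7) and none higher, against 4.84% of all tested genes called lower. Every Jag2sm library lay below every WT library for 6 of the 8, against 12.2% of all tested genes. The log2 fold changes of the 8 ran from -1.85 to -0.45 with a median of -1.13, where the median over all tested genes was 0.0487. The difference between replicates of the same batch was negative in all 24 comparisons, 3 for each gene. These comparisons rest on the same 3 pairs of libraries and are not independent. WT replicate 1 was the highest WT library for each of the 8 genes. Of all tested genes 46% had a negative log2 fold change, and how many were negative in every pair was not counted. In bulk RNA such as this, fewer cells of a type and less RNA per cell cannot be told apart.

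**Figure D1:**
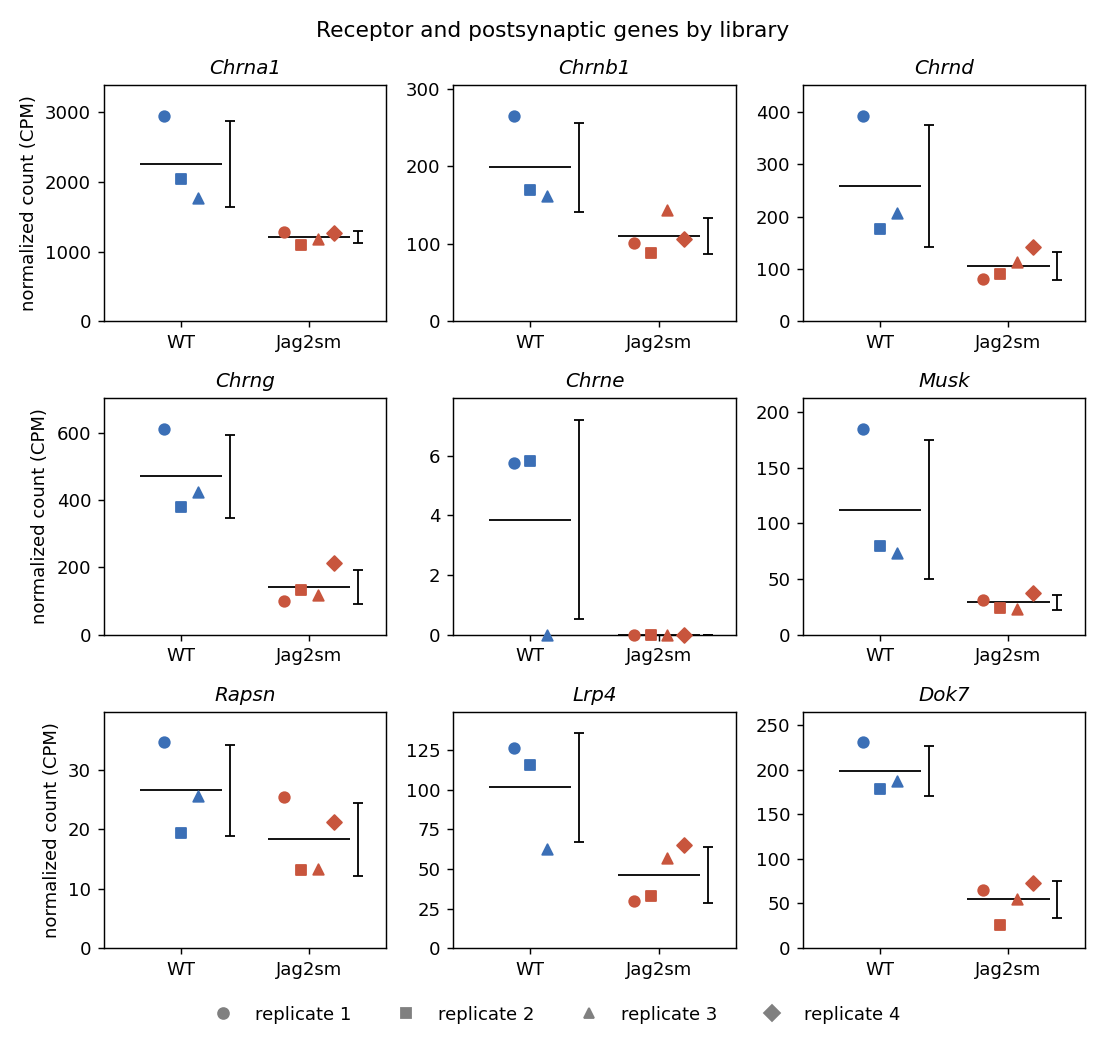
Normalized counts (CPM, linear axes from 0) of the 9 genes in 3 WT and 4 Jag2sm libraries; symbols give the replicate, horizontal lines the mean and the bars beside them ± 1 SD. WT replicate 1, the shallowest library, is the highest WT library for each gene except Chrne, and the groups overlap in Rapsn and Lrp4 and share values of 0 in Chrne.

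Chrng (chr1:87132379-87140416, plus strand) encodes the γ subunit of the fetal receptor. Its WT libraries had 611.0, 379.4 and 423.0 CPM in replicates 1 to 3. In Jag2sm replicates 1 to 4 it had 98.98, 133.4, 117.8 and 213.6 CPM. The highest Jag2sm library was thus well under the lowest WT library. The WT mean of 471.1 ± 123.1 CPM (SD, n = 3) compares with a Jag2sm mean of 140.9 ± 50.44 CPM (SD, n = 4), a log2 fold change of -1.72 ± 0.295 (SE; 95% interval -2.37 to -1.07; edgeR adjusted p = 0.00871). Within batches 1, 2 and 3 the log2 CPM difference was -2.61, -1.50 and -1.83.

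Chrne (chr11:70505707-70510125, minus strand), the adult subunit gene, was close to the detection limit. It had 1, 9 and 0 reads in WT replicates 1 to 3 and 0 reads in each of the 4 Jag2sm libraries. Of the reads that fell on Chrne or Chrng, 10 of 1149 were Chrne in WT MuSCs (0.87%, 95% Clopper-Pearson interval 0.418% to 1.59%) and 0 of 764 in Jag2sm MuSCs (0%, interval 0% to 0.482%, where a limit of 3 reads would allow a share of up to 0.393%). The 2 intervals overlap, and they and the limit cover counting error only. Pooled over libraries, without TMM scaling, and set against a limit of 3 reads over the Jag2sm group, Chrne was 5.83-fold lower in Jag2sm MuSCs. This figure takes the 10 WT reads as exact and so is not a firm lower bound. Of those 10 reads, 9 came from WT replicate 2. Without that library 1 read remained, under the limit of 3 reads for the rest of the group, and no fold can be given. The Chrne promoter printed above is therefore that of a gene nearly unread in either genotype, and almost all γ or ε transcripts in both were of the fetal form. The per-library log2 ratio of Chrne to Chrng was -6.66 ± 1.18 in WT (SD, n = 3) and -6.32 ± 0.470 in Jag2sm (SD, n = 4). These groups overlapped (two-sided exact permutation p = 0.629, adjusted over 9 ratios 0.707), and with Chrne at 0 in 5 libraries the ratio rests on the added prior count.

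Chrna1 (chr2:73393557-73410835, minus strand), which encodes the subunit that carries the acetylcholine binding face, was the most abundant of the 9. It had 2945.6, 2043.8 and 1765.9 CPM in WT replicates 1 to 3 and 1286.7, 1091.1, 1183.1 and 1270.1 CPM in Jag2sm replicates 1 to 4. The Jag2sm libraries lay close together and all below WT. The log2 fold change was -0.90 ± 0.260 (SE; 95% interval -1.47 to -0.32), and the test did not call it (edgeR adjusted p = 0.0706). DESeq2 with its default settings (adjusted p = 0.00226), limma-voom (adjusted p = 0.0472), counts thinned to the smallest library (edgeR adjusted p = 0.0424) and edgeR without WT replicate 1 (adjusted p = 0.0375, log2 fold change -0.67) did. The batches gave log2 CPM differences of -1.19, -0.90 and -0.58.

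Chrnd (chr1:87118306-87127795, plus strand) encodes the δ subunit and is the neighbor of Chrng on chromosome 1. It had 392.0, 175.8 and 206.7 CPM in WT replicates 1 to 3 and 80.60, 90.52, 113.3 and 141.0 CPM in Jag2sm replicates 1 to 4, with no overlap. Its log2 fold change of -1.21 ± 0.306 (SE; 95% interval -1.89 to -0.53) was called narrowly (edgeR adjusted p = 0.0423). The call was lost when replicates were paired by batch in the fit (replicate block, edgeR adjusted p = 0.0598), in which Jag2sm replicate 4, alone in its batch, contributes nothing to the comparison of genotypes. It was also lost with library size as the normalization (adjusted p = 0.0641) or in thinned counts (adjusted p = 0.138). Leaving out WT replicate 1 (adjusted p = 0.0612, log2 fold change -0.85) or 3 (0.0774), or Jag2sm replicate 1 (0.102), 2 (0.136) or 3 (0.0622), lost it as well in edgeR. Within batches the log2 CPM difference was -2.26, -0.94 and -0.86.

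Chrnb1 (chr11:69674860-69686773, minus strand), the β1 subunit gene, had 265.2, 169.4 and 162.2 CPM in WT replicates 1 to 3 and 101.8, 88.45, 143.9 and 106.8 CPM in Jag2sm replicates 1 to 4. The groups did not overlap, though Jag2sm replicate 3 came near the lowest WT library. The log2 fold change of -0.80 ± 0.250 (SE; 95% interval -1.35 to -0.24) was not called (edgeR adjusted p = 0.0924), and the batches gave -1.37, -0.92 and -0.17. Its log2 fold change was smaller in size than those of the other 3 tested subunit genes.

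**Figure D2:**
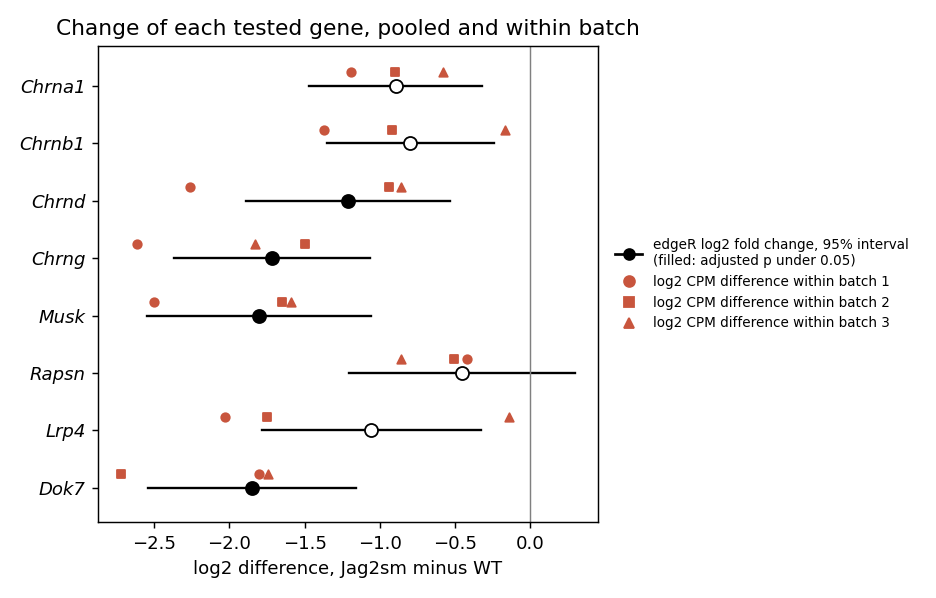
Log2 difference of Jag2sm from WT for the 8 tested genes. Circles with lines are edgeR log2 fold changes with 95% intervals (filled where the adjusted p is under 0.05), and red symbols are log2 CPM differences within batches 1, 2 and 3; all lie left of 0 except the upper end of the Rapsn interval.

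As a share of the reads on the 5 subunit genes, Chrng was lower in every Jag2sm library than in every WT library. It made 13.7% to 16.5% of these reads in the WT libraries and 6.31% to 12.3% in the Jag2sm libraries. The counting intervals of the nearest libraries overlapped (95% Clopper-Pearson, 11% to 13.8% in Jag2sm replicate 4 and 12.7% to 14.7% in WT replicate 2). The difference in share was not tested. The means were 14.9% ± 1.48 (SD, n = 3) and 8.93% ± 2.62 (SD, n = 4). The share of Chrna1 was 70.8% ± 2.48 in WT and 77.3% ± 3.66 in Jag2sm libraries, with overlap, since Jag2sm replicate 4, at 73.4%, lay below the 73.7% of WT replicate 2. The shares of Chrnb1 (6.24% ± 0.123 and 7.05% ± 1.46) and Chrnd (7.9% ± 1.48 and 6.75% ± 1.28) overlapped between genotypes. These shares add up to the whole in each library, so 1 cannot move without the others.

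**Figure D3:**
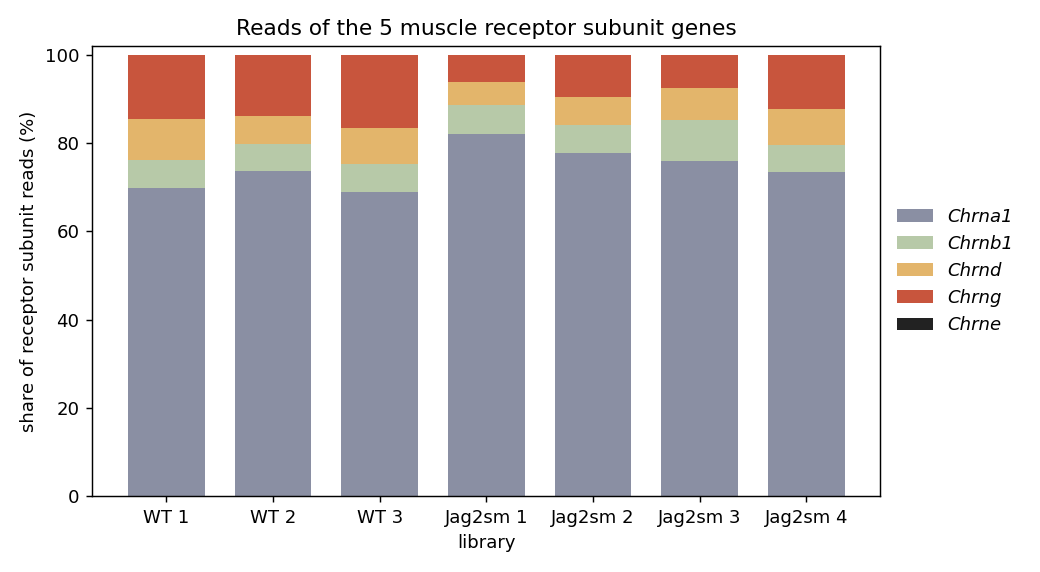
Share (%) of the reads on the 5 receptor subunit genes in each library, as stacked bars; Chrne, at most 0.21%, is too thin to be seen. The Chrng part at the top of each bar is 13.7% to 16.5% in WT and 6.31% to 12.3% in Jag2sm libraries.

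Musk (chr4:58285931-58377847, plus strand) encodes the receptor tyrosine kinase at the center of the pathway. It had 184.5, 79.50 and 73.03 CPM in WT replicates 1 to 3. The Jag2sm replicates 1 to 4 had 31.11, 24.19, 23.16 and 37.50 CPM. WT replicate 1, with 32 Musk reads, was more than the sum of the other WT libraries, and all 3 were above every Jag2sm library. The log2 fold change was -1.80 ± 0.336 (SE; 95% interval -2.55 to -1.06; edgeR adjusted p = 0.0118), with -2.50, -1.65 and -1.59 within batches. Without WT replicate 1, Musk stayed called with a smaller log2 fold change of -1.43.

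Dok7 (chr5:35213886-35246018, plus strand) encodes the cytoplasmic adaptor of MUSK. It had 230.6, 177.8 and 187.8 CPM in WT replicates 1 to 3, the tightest WT group among the called genes, and 65.04, 25.57, 55.19 and 73.37 CPM in Jag2sm replicates 1 to 4. No Jag2sm library came near the WT range. The log2 fold change of -1.85 ± 0.313 (SE; 95% interval -2.54 to -1.16; edgeR adjusted p = 0.00814) was the lowest of the 8, and the batches gave -1.80, -2.72 and -1.74. Its interval and those of Musk and Chrng overlapped widely.

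Lrp4 (chr2:91287797-91344248, plus strand), the agrin receptor gene, had 126.8, 115.7 and 62.59 CPM in WT replicates 1 to 3 and 29.69, 33.17, 56.67 and 65.22 CPM in Jag2sm replicates 1 to 4. Jag2sm replicate 4 lay above WT replicate 3, so the groups overlapped. The log2 fold change of -1.06 ± 0.330 (SE; 95% interval -1.78 to -0.33) was not called (edgeR adjusted p = 0.0913). It was called by edgeR without a filter on low counts (adjusted p = 0.00577) and in thinned counts (adjusted p = 0.0285). Within batches the differences were -2.03, -1.75 and -0.14, so batch 3 showed little of it.

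Rapsn (chr2:90865892-90876082, plus strand), which encodes the receptor-anchoring protein rapsyn, had 34.59, 19.39 and 25.61 CPM in WT replicates 1 to 3 and 25.45, 13.13, 13.30 and 21.20 CPM in Jag2sm replicates 1 to 4. The ranges overlapped. With 6 to 30 reads per library, its log2 fold change of -0.45 ± 0.340 (SE; 95% interval -1.20 to 0.30; edgeR adjusted p = 0.511) leaves room for a fall of more than 1 on the log2 scale or a small rise. Exons of Rapsn, Chrna1 and Musk overlap lncRNA genes of the opposite strand (Gm13778, Gm30940 and Gm68860), and the strand setting of the counting is not given in the sources used here. Gm13778 had 6 reads in all, and the others have no row in the counts.

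Relative to Chrna1 in the same library, a measure that does not depend on the normalization beyond the prior count, 3 genes separated the genotypes. How many of all tested genes would separate them in a ratio to Chrna1 was not counted. The log2 ratio to Chrna1, Jag2sm minus WT, was -0.89 for Chrng (WT -2.25 ± 0.184, Jag2sm -3.14 ± 0.471; SD), -0.92 for Musk (-4.40 ± 0.363 and -5.32 ± 0.232) and -1.05 for Dok7 (-3.47 ± 0.225 and -4.51 ± 0.554), each without overlap between 3 WT and 4 Jag2sm libraries. The two-sided exact permutation p was 0.0571 for each, the smallest that 3 libraries against 4 can give in this form, and 0.171 after Benjamini-Hochberg adjustment over 9 ratios, so none passed. The ratios of Chrnd (-0.34), Lrp4 (-0.26), Chrnb1 (0.04) and Rapsn (0.35, Jag2sm minus WT) overlapped between genotypes.

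**Figure D4:**
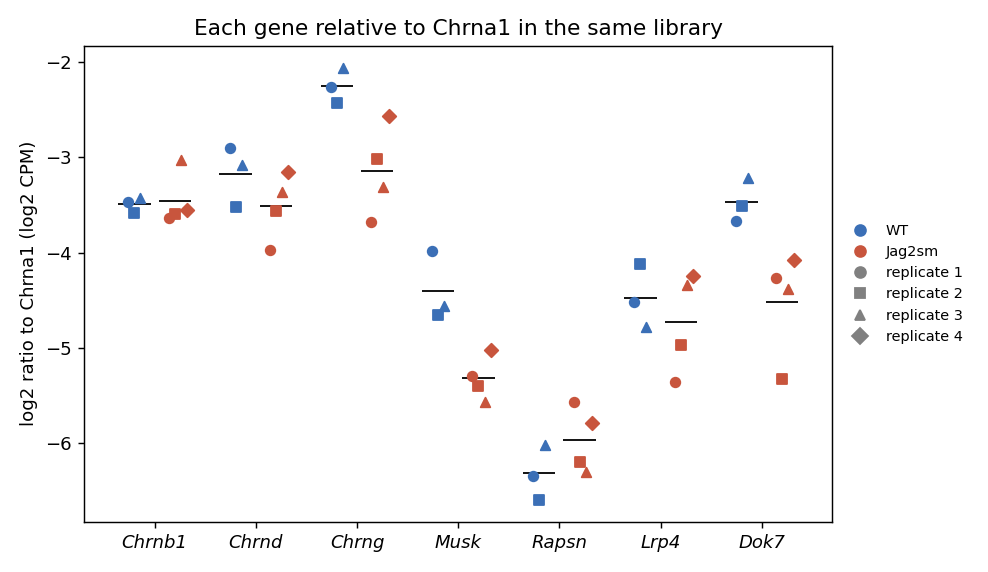
Log2 ratio of each gene's CPM to that of Chrna1 in the same library (blue WT, red Jag2sm, symbols the replicate, lines the group means). Chrng, Musk and Dok7 separate the genotypes, and Chrnb1, Chrnd, Rapsn and Lrp4 do not; Chrne, at 0 reads in 5 libraries, is left out.

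Per kilobase of the canonical transcript, Chrna1 was the highest in both genotypes, at 495.9 ± 135.8 CPM per kb in WT (SD, n = 3) and 266.0 ± 19.84 in Jag2sm (SD, n = 4). A long cDNA read can cover a whole transcript, so such levels rank the genes only roughly. In WT MuSCs Chrng came next at 167.0 ± 43.64 CPM per kb, apart in range from Chrna1 above it and Chrnb1 below it. Chrnb1, Chrnd and Dok7 followed with ranges that overlapped from each to the next (92.12, 86.61 and 64.12), then Musk, Rapsn and Lrp4, which overlapped likewise (16.29, 15.58 and 12.54), and Chrne at 2.27. In Jag2sm MuSCs Chrng was no longer apart from Chrnb1, at 49.96 ± 17.88 against 51.05 ± 10.99 CPM per kb. Musk, sixth in WT MuSCs, was eighth in Jag2sm MuSCs at 4.20 ± 0.969 CPM per kb, overlapping in range with Lrp4 at 5.70 ± 2.15.

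Of 20 genes of agrin and MUSK signaling, 19 were tested, 2 were called lower (10.5%, against 4.84% of all tested genes) and none higher, with a median log2 fold change of -0.06. They were Macf1, which links microtubules to actin (-1.39, edgeR adjusted p = 0.0419), and the kinase gene Fyn (-1.19, edgeR adjusted p = 0.0254). Neither was called in the replicate block or without Jag2sm replicate 1, 2 or 4. Of 18 genes of the postsynaptic scaffold and synaptic matrix, 16 were tested and 5 were called lower (31.2%, against the same 4.84%), with a median of -1.14. The largest were the muscle sodium channel gene Scn4a (-3.44, edgeR adjusted p = 0.0318), the syntrophin gene Sntb1 (-2.37, 0.0185), the dystroglycan gene Dag1 (-1.80, 0.0213) and the dystrobrevin gene Dtna (-1.44, 0.0419). Scn4a had only 39 reads over the WT libraries (26.57 ± 26.92 CPM, SD, n = 3) and 8 over the Jag2sm libraries. Its call was lost without WT replicate 2 or Jag2sm replicate 1, 2 or 3 (edgeR adjusted p = 0.0561 to 0.0972). The count of 5 was 0 to 3 in 6 of the 7 fits that left out 1 library, and 0 without Jag2sm replicate 2.

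Among 8 genes of the neuregulin pathway and ETS factors, which act through the N box, 6 were tested and 1 was called lower (16.7%, against 4.84% of all tested genes), with a median of -0.065. It was Erbb3, a neuregulin receptor gene (-2.78, edgeR adjusted p = 0.00533). Of the 9 genes for receptor folding and glycosylation, 7 were tested and none was called in either direction, with a median of -0.0536. None of the 11 nicotinic subunit genes of neurons and other cells had enough counts to be tested, and 6 were at 0 in every library.

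The E-box factors split. Of 8 regulators of the receptor genes, 6 were tested and 2 were called lower (33.3%, against 4.84% of all tested genes). They were Myf6 (-4.33, edgeR adjusted p = 0.00656) and Myog (-2.33, edgeR adjusted p = 0.0300), which encodes myogenin. Myog had 2893.7, 2222.2 and 2850.8 CPM in WT replicates 1 to 3 and 711.2, 387.0, 110.4 and 905.7 CPM in Jag2sm replicates 1 to 4, without overlap. Its call was lost when any WT library or Jag2sm replicate 1 or 2 was left out (edgeR adjusted p = 0.0572 to 0.106), while Myf6 stayed called in each of these fits. Myf6 had only 124 reads over the WT libraries (79.61 ± 75.91 CPM, SD, n = 3) and 16 over the Jag2sm libraries. It was not tested with at least 10 counts in every library or in thinned counts. Myod1 had 697.5 to 830.0 CPM in WT and 615.4 to 806.2 CPM in Jag2sm libraries and was not called (log2 fold change -0.19 ± 0.221, SE; edgeR adjusted p = 0.696). Jag2sm replicate 3 had the lowest Myog of all libraries and an ordinary Chrna1 level for its genotype, while Jag2sm replicate 4 had the highest Myog, Chrng, Musk and Dok7 of its genotype. Jag2sm replicate 1, with 711.2 CPM of Myog, had the lowest Chrng and Chrnd and the highest Chrna1 of its genotype. Across the 7 libraries, log2 CPM of Myog followed the mean of the 4 tested subunit genes at Pearson r = 0.772, rank 1320 of 9489 genes. That value mostly restates the difference between genotypes. Taken as deviations from the genotype means, the value was 0.084, rank 4034, and it too rests on only 7 libraries. A part of Myog in the levels of the receptor genes was not tested.

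Genes of differentiated muscle were also lower in Jag2sm libraries, with larger log2 fold changes. Of 15 such markers, 13 were tested and all 13 were called lower (100%, against 4.84% of all tested genes), with a median log2 fold change of -3.3. The summed level of the 15 was 14635.3 to 30689.3 CPM in WT and 542.0 to 3466.2 CPM in Jag2sm libraries. The most read were the actin gene Acta1 (-3.28, edgeR adjusted p = 0.0132), the embryonic myosin gene Myh3 (-3.21, 0.00539) and the troponin gene Tnnt3 (-3.30, 0.00539), and the largest changes by size were those of Myh8 (-3.88), Mef2c (-3.83), Actn2 (-3.66) and Ttn (-3.39). None of the 15 was at 0 in every library. Without Jag2sm replicate 2, 9 were called. The part of these cells in the lower receptor and clustering genes was not tested.

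**Figure D5:**
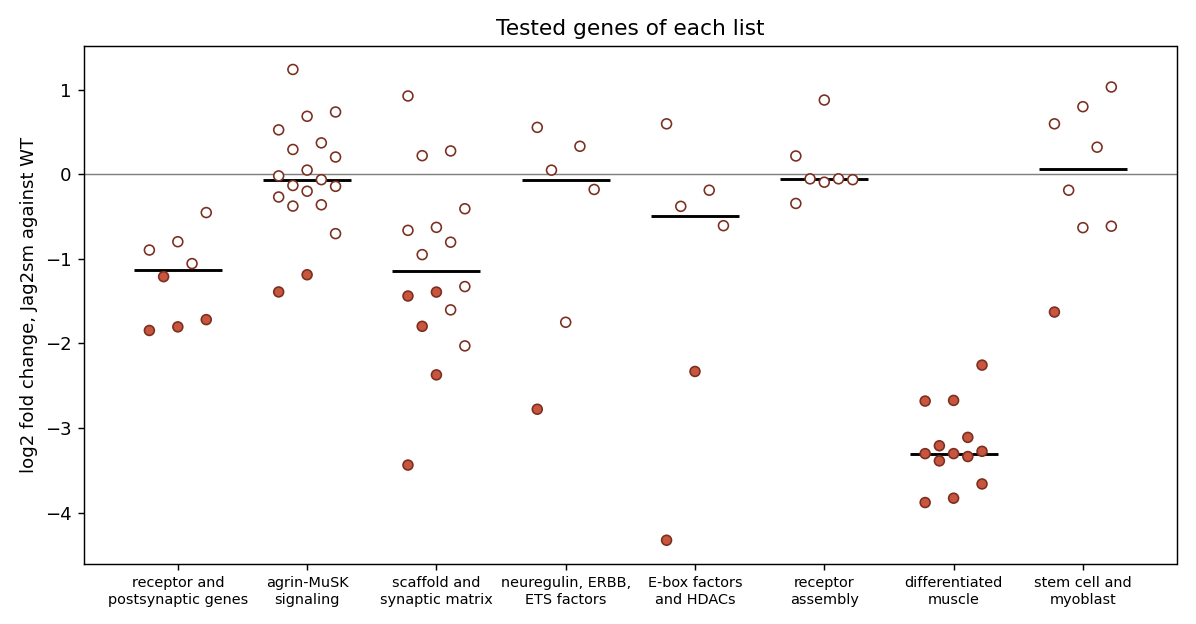
Log2 fold change of Jag2sm against WT for each tested gene of 8 lists (filled where the edgeR adjusted p is under 0.05; lines are medians). The receptor and postsynaptic genes have a median of -1.13 and the 13 differentiated muscle genes, all called, one of -3.3.

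Stem cell and myoblast markers were read in both genotypes. Of 9, 8 were tested, 4 with a negative log2 fold change, with a median of 0.0665, and 1 was called lower (12.5%, against 4.84% of all tested genes). It was Des, the desmin gene, which fibers also express (-1.63, edgeR adjusted p = 0.0245). Its edgeR adjusted p was 0.0596 in the replicate block, 0.0601 without Jag2sm replicate 1 and 0.089 without Jag2sm replicate 2. The most read of the rest were Myod1 and Sdc4 (log2 fold change 0.32, edgeR adjusted p = 0.485). Pax7, the defining marker of MuSCs, and Vcam1, both named here after their values were seen, had positive log2 fold changes that were not called. Pax7 had 68.37 ± 35.06 CPM in WT (SD, n = 3) and 131.6 ± 29.76 CPM in Jag2sm MuSCs (SD, n = 4), with every Jag2sm library above every WT library (log2 fold change 0.80, edgeR adjusted p = 0.173). The value for Vcam1 was 1.03 (edgeR adjusted p = 0.212), with overlap. Itga7, whose product was used to select the cells, and Cdh15, also added later, had negative log2 fold changes that were not called. These were -0.63 (edgeR adjusted p = 0.428) and -0.61 (edgeR adjusted p = 0.318), both with overlap. Schwann cell markers had a summed level of 17.29 to 35.09 CPM in WT and 18.23 to 59.51 CPM in Jag2sm libraries, led by Pmp22, Ngfr and Mbp, with Cdh19 at 0. Endothelial markers summed to 4.43 to 17.29 CPM over all libraries, led by Pecam1, Tek and Vwf, with Kdr at 0. Fibro-adipogenic markers summed to 5.76 to 25.86 CPM in WT and 23.65 to 45.61 CPM in Jag2sm libraries, led by Cd34, Col15a1 and Ly6a, with Lum and Dpt at 0. Immune markers reached at most 6.64 CPM, led by Cd68, Itgam and Cd79a, with Ptprc, Adgre1 and Cd3e at 0. Of 7 mural and tenocyte markers 3 were tested and 2 called lower (66.7%, against 4.84% of all tested genes). Abcc9 (-3.71, edgeR adjusted p = 0.0139) had only 38 reads over the WT and 6 over the Jag2sm libraries. Scx (-1.34, edgeR adjusted p = 0.0223) was not called without WT replicate 2 or 3 or Jag2sm replicate 1 or 2 (edgeR adjusted p = 0.0528 to 0.087). Rgs5 was not called (log2 fold change 3.73, edgeR adjusted p = 0.135), though every Jag2sm library lay above every WT library. It had 12.89 ± 1.35 CPM in WT (SD, n = 3) and 185.0 ± 306.6 CPM in Jag2sm libraries (SD, n = 4), the latter with an SD above the mean. Mural and tenocyte markers summed to 144.2 to 172.9 CPM in WT and, unevenly, 72.56 to 697.1 CPM in Jag2sm libraries.

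Across the 7 libraries, the genes whose log2 CPM followed the mean of the 4 tested subunit genes most closely were Sik1 (Pearson r = 0.995), Pkia (0.994) and Ldlrad3 (0.994), of 9489 genes ranked. The value was 0.973 for Musk (rank 63), 0.907 for Dok7 (rank 490), 0.892 for Lrp4 (rank 594) and 0.682 for Rapsn (rank 1779). The libraries share 2 genotypes, so these values mostly restate the difference between them. Taken as deviations from the genotype means, the closest were Dhx8 (0.992), Scamp2 (0.991) and Sdha (0.990). By this measure the value was 0.857 for Musk (rank 361), 0.714 for Lrp4 (rank 1193), 0.482 for Dok7 (rank 2468) and 0.450 for Rapsn (rank 2605). No chance level was computed for the closest of 9489 genes. WT replicate 1, the shallowest library, was the highest WT library for each of the 4 subunit genes in the mean.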

How the data were processed

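MuSC RNA of 3 WT and 4 Jag2sm samples was sequenced as direct cDNA. Per the labels, the authors used minimap2 2.17 for alignment against GRCm39 and HTSeq for counting per gene; its version, strand setting and annotation are not given in the sources used here. The deposited values used are raw counts of 56748 genes per library. Summary rows (reads on no gene, ambiguous or not aligned) were left out of library sizes and tests. No 2 libraries of a genotype agreed within sampling noise (chi-square per degree of freedom over genes), but WT 2 and 3 (2.12) and Jag2sm 2 and 4 (2.71) were closer than the other pairs (8.93 to 10.66). The authors' table of the comparison (fold changes and p-values) was not used. Of the identifiers, 56017 were found in GENCODE M39, the source of symbols, locations and transcript lengths.

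Counts were tested in R 4.3.3 with edgeR 4.0.16 (filterByExpr, minimum count 10 and total 15; TMM; glmQLFit, glmQLFTest, no covariates; Benjamini-Hochberg over 9489 genes). The SE is the log2 fold change divided by the root of F. Log2 CPM uses a prior count of 2. Ratios were tested by exact permutation over 35 splits in SciPy 1.17.1, two-sided by doubling the smaller tail. Alternatives were DESeq2 1.42.0, limma-voom 3.58.1, other normalizations and filters, thinned counts, the replicate block and each library left out. Scripts were tested on simulated counts. The batch field of the labels gives same-numbered libraries the same batch, which was taken to pair them, although their deviations from the genotype means correlated at only 0.074, 0.0144 and 0.0539 across genes. Depth sets the precision: 3 reads equal 16.0 CPM in WT replicate 1 and 1.55 CPM in the deepest library.

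The members and lists were chosen with earlier results of these data known. Besides the 9 genes and Jag2, the text names the called genes with the 4 largest log2 fold changes of each list, the 3 most read markers of each cell type, the 3 genes most like the subunit mean by each measure, and genes whose exons overlap a member's. Pax7, Vcam1, Itga7 and Cdh15 were added after their values were seen.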

Additional observations from a re-analysis of the deposited data

Results flagged for a closer look

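Among 23 sets of 4 Jag2sm values checked (CPM, receptor read shares and ratios of the 9 genes), 1 library stood far from the other 3 in 2 related measures, by a criterion that chance meets in about 1 in 20 groups. In Jag2sm replicate 3, Chrnb1 made 9.23% of the receptor reads, against 6.17% to 6.49% in the other Jag2sm libraries and 6.1% to 6.34% in WT libraries. Its log2 ratio of Chrnb1 to Chrna1 was -3.025, against -3.638 to -3.551 in the other Jag2sm libraries. The same library had the lowest Myog, at 110.4 CPM.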

How the results depend on the processing

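All 118 fits of the 8 tested genes under 15 other settings gave a negative log2 fold change, and Chrng, Musk and Dok7 were called in all 15, with adjusted p up to 0.0408, 0.0496 and 0.0267. Chrnd was called in 7, Chrna1 in 4, Lrp4 in 2, Chrnb1 and Rapsn in none; the cause was not tested. The members called numbered 3 to 6 of those tested, and 3 to 4 with 1 library left out. Chrne was tested only without the filter, where it was called, and in DESeq2, which gave it no adjusted p. Genes called numbered 594, but 1248 without the filter, 274 with at least 10 counts in every library (2981 genes tested), 297 in thinned counts, and 251 to 616 with 1 library left out. Library size alone moved the median of all genes to 0.209 and the share of calls that were higher from 22.7% to 38.6%, and no filter moved it to 37.5%. The replicate block changed no call of the 8 genes other than Chrnd, and gave 565 calls in all. The ratio of Chrne to Chrng turned from 0.34 to -0.81 with a prior count of 0.5, and ran from -0.31 (without WT replicate 3) to 0.84 (without WT replicate 2) with 1 library left out. That of Chrnb1 to Chrna1 turned from 0.04 to -0.01 without WT replicate 2, and ran from -0.10 (without Jag2sm replicate 3) to 0.10 (without Jag2sm replicate 1). A permutation form that counts absolute differences, added after the data were seen, gave adjusted p of 0.171 for Chrng and 0.129 for Musk and Dok7, so no ratio passed.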
